A study of Mus musculus with 18 samples.

Results

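The 9 genes described here are long non-coding RNAs of the nucleus and of neural loci, namely Malat1, Neat1, Miat, Rmst, Sox2ot, Pantr1, Dlx6os1, AI506816 and Gm53. They were listed by name and selected on the measured values of these same libraries, so their own levels and differences are given as a description without any test. All 9 were found by Ensembl gene identifier among the 27997 genes measured, of which 4370 carry a long non-coding biotype in the annotation. RNA was measured in 18 libraries of cultured mouse cells, made up of 6 groups with 3 replicates each. Adherent neural stem cells (NSCs) were compared with the astrocytes made from them, in lines of traced spinal cord cells and in a hippocampal line.

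The traced tdTomato line came from spinal cords of Clec9a Cre Rosa LSL-tdTomato mice, labelled DNGR-1 +/- Tom+/-. The traced EYFP line came from Clec9a Cre Rosa LSL-EYFP mice, labelled DNGR-1 +/- EYFP+/-. In both, Cre is driven by the Clec9a locus, which encodes the dendritic cell receptor DNGR-1, so that the reporter marks cells with a history of its expression. The hippocampal line, labelled DNGR-1+/+, came from Glast Cre Huwe1 fl Rosa LSL-EYFP mice, and whether the Huwe1 allele was recombined in these cells is not given in the sources used here. NSCs of every line were kept for 4 days on laminin with bFGF and EGF. Astrocytes of every line received BMP4 at 20 ng/ml and were collected after 6 days of culture. By the study's methods its mice were young adults unless stated otherwise. Each line is 1 culture sampled at successive passages, so that tissue of origin, individual line, Cre driver and Huwe1 allele cannot be told apart, and the spread between replicates is a spread between passages.

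Long non-coding RNAs are transcripts without a long reading frame that mostly stay in the nucleus. Malat1 collects in nuclear speckles, which store splicing factors, and the long form of Neat1 is the scaffold of paraspeckles, bodies that hold RNA-binding proteins. Miat, also called Gomafu, forms nuclear foci in neural cells and carries repeats that resemble the intron branch point. Rmst and Sox2ot are tied to the neural stem cell factor Sox2, the first as a binding partner and the second as the gene in whose intron Sox2 lies. Pantr1 and Dlx6os1 lie beside the neural homeobox genes Pou3f3 and Dlx6. Gm53 lies within the Hoxb cluster, and AI506816 is little characterised.

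The genes are dispersed over 7 chromosomes of the GRCm38 build, in the GENCODE M21 annotation. Malat1 (chr19:5795690-5802672) and Neat1 (chr19:5824708-5845478) are lincRNA genes on the minus strand, 22.0 kb apart. Miat (chr5:112213228-112229395) and Rmst (chr10:92071037-92165170) are lincRNA genes on the minus strand. Sox2ot (chr3:34104270-34682619) is a processed transcript on the plus strand that spans 578.4 kb and encloses Sox2 on the same strand, with 0 exonic bases in common. Pantr1 (chr1:42590782-42694842) is a minus-strand lincRNA gene that begins 0.9 kb from Pou3f3 on the other strand. Dlx6os1 (chr6:6820189-6871592) is an antisense gene on the minus strand that encloses Dlx6, again with 0 exonic bases in common. AI506816 (chr5:23698296-23712667) is a minus-strand processed transcript 13.7 kb from the kinase gene Srpk2. Gm53 (chr11:96251105-96264868) is a plus-strand lincRNA gene 6.6 kb from Hoxb9.

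Sequence bears on how these RNAs were captured, since the libraries were made from polyadenylated RNA. Malat1 and the long form of Neat1 are known to end without a poly(A) tail, in a triple helix that holds an A-rich tract, whereas the short form of Neat1 is polyadenylated. The tract AAAGCAAAA occurs once in the longest transcript of each of Malat1, Neat1 and Miat (6983, 20771 and 9163 bases). It occurs in none of the other 6, which have at most 4608 bases. On the transcript strand, and without scaling for length, it occurs in 5.1% of the longest transcripts of 27887 genes. The windows below are shown for that reason (in Malat1 the tract is followed by the tRNA-like stretch that is cut off as mascRNA), with the tract in capitals in the first and second and the poly(A) signal AATAAA in capitals in the third. They lie on the minus strand of GRCm38 at chr19:5795922-5796050, chr19:5824708-5824787 and chr19:5842307-5842386, in exons.
Malat1: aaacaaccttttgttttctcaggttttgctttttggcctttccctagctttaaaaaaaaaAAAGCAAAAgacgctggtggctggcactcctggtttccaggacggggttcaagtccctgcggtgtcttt
Neat1 long form: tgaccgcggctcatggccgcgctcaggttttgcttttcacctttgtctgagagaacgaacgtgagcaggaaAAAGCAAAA
Neat1 short form: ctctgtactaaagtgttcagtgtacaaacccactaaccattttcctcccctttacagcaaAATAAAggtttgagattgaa
The values of Neat1 sum over both of its forms, and the part of each cannot be read from a gene-level table.

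Miat carries 11 copies of ACTAAC in a transcript of 9163 bases, or 1.2 per kb, counted on the transcript strand. Among the longest transcripts of 21498 genes with at least 1000 bases, the median was 0.0 per kb and 0.29% reached the density of Miat. The window with 4 of these copies is shown because ACTAAC is the branch point motif that the splicing factor Sf1 binds, and it lies in an exon at chr5:112217295-112217474 on the minus strand, with the copies in capitals.
Miat: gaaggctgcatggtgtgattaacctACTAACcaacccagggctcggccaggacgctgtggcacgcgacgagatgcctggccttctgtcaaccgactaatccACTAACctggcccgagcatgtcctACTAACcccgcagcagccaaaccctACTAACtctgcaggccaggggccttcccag

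The values are log2 expression values as deposited, in the form of a regularized log, a form that draws genes with few reads towards their own average. They are relative to library size and not to gene length, so levels are compared between groups and never between genes. Fold changes below are 2 to the power of a difference of mean log2 values, and SE combines the spreads of the groups compared. A gene counted as measured above the low range where it reached a log2 value of 3.32 in at least 3 libraries. The genes that did so were Malat1, Neat1, Miat, Sox2ot, Pantr1, AI506816 and Gm53. Rmst and Dlx6os1 did not.

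The labels of the cultures were checked against marker genes. Astrocytes had higher Gfap, the astrocyte filament protein, by 6.53 ± 0.15 (SE) on the log2 scale and higher Aqp4, the water channel, by 4.36 ± 0.13, and all 6 proliferation genes were lower (limma, adjusted p 5.6e-17, 2.2e-15 and at most 1.2e-16). Of 10 neural stem cell markers, 5 passed as higher in astrocytes and 4 as lower, with a median difference of 0.14 (limma; all genes, 81.9% passing). Their summed level was 16.66 to 16.8 in NSCs and 16.58 to 17.92 in astrocytes, so they did not fall as a set. Of 5 microglial and leukocyte markers none reached 3.32 in 3 libraries of either fate, and their summed level was 2.26 to 2.74 in NSCs and 2.71 to 3.88 in astrocytes. The summed level of 5 endothelial and mural markers was 3.75 to 4.50 in NSCs and 7.36 to 8.07 in astrocytes, with Pecam1, Cdh5 and Pdgfrb under 3.32 throughout and Kcnj8 and Rgs5 above it in astrocytes alone. Ependymal markers (4 genes) went from 9.45 to 10.5 in NSCs to 11.01 to 12.32 in astrocytes, and oligodendrocyte lineage markers (6 genes, Sox10 and Mog under 3.32) from 11.36 to 12.1 to 12.76 to 13.38. Neuronal markers (9 genes, Snap25, Stmn2 and Neurod1 under 3.32) lay at 14.45 to 14.62 and 13.91 to 14.35, but of the 6 tested Rbfox3 (1.73), Dcx (1.47) and Tubb3 (0.85) passed as higher in astrocytes and Elavl3 (-0.60) and Map2 (-0.35) as lower. The part of these genes in the values below was not tested. In bulk libraries, fewer cells of a type and less RNA per cell cannot be told apart.

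The change from NSC to astrocyte took 3 directions. Malat1, Neat1 and Miat, the RNAs of nuclear bodies, lay higher in the astrocytes of every line. Pantr1 and AI506816 lay lower in the astrocytes of every line. Sox2ot, Gm53 and Dlx6os1 changed by amounts that depended on the line, and Rmst stayed in the low range. In the tdTomato line the astrocytes did not overlap the NSCs for 8 of the 9 genes, 6 of them higher and 2 lower, where 81.6% of all genes above the low range did not overlap. In the EYFP line this held for 8 of 9, 5 higher and 3 lower (all genes, 78.4%), and in the hippocampal line for 9 of 9, 7 higher and 2 lower (all genes, 79.8%). The higher genes of each line include Rmst, and those of the tdTomato and hippocampal lines Dlx6os1, which lie below the range over which the shares of all genes were taken, and in the hippocampal line their separation was at the floor (differences of means 0.23 and 0.04, with 2 of the 3 Rmst libraries within 0.1 of the NSCs). Gm53 lay on a flat low level there too, with a difference of 0.06. Because the genes were chosen on these values, nothing is read from the counts. The median difference of the 9 genes was 1.499, 0.30 and 0.23 in the same order of lines, and that of all genes was 0.00, 0.00 and 0.01.

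**Figure D1:**
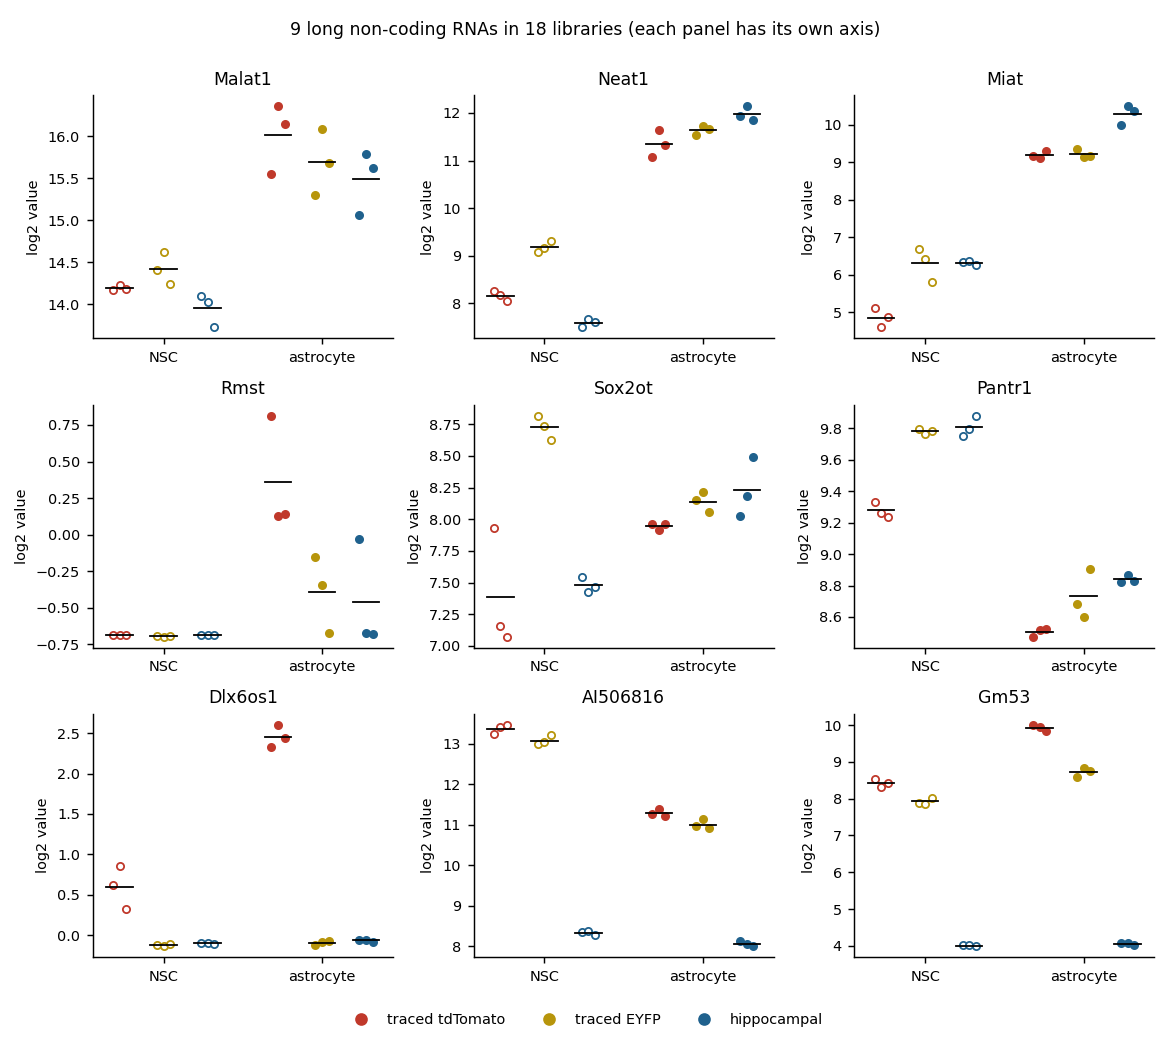
Log2 value (vertical axis, a separate range for each gene) of the 9 long non-coding RNAs in 18 libraries, with open circles for NSCs, filled circles for astrocytes, colour for the line and a black bar for the mean of 3 replicates. Malat1, Neat1 and Miat are higher in all astrocytes than in all NSCs, while AI506816 and Gm53 separate the traced from the hippocampal lines, and Rmst and Dlx6os1 stay under 3.32.

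Malat1 reached log2 values of 14.17, 14.23 and 14.18 in tdTomato NSCs, 14.41, 14.62 and 14.24 in EYFP NSCs and 14.10, 14.02 and 13.72 in hippocampal NSCs. In astrocytes the values were 15.55, 16.36 and 16.15 (tdTomato), 15.30, 16.09 and 15.68 (EYFP) and 15.06, 15.78 and 15.62 (hippocampal). All 9 astrocyte libraries lay above all 9 NSC libraries, and the astrocyte groups overlapped each other. The difference was 1.83 ± 0.25 (SE, n = 3 and 3) in the tdTomato line, 1.27 ± 0.25 in the EYFP line and 1.54 ± 0.25 in the hippocampal line, or 3.55-, 2.41- and 2.91-fold. Among the NSC groups, EYFP lay above tdTomato and tdTomato above hippocampal without overlap, over a span of means of 14.42 to 13.95.

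The Malat1 values varied more among astrocyte replicates (SD 0.38 to 0.42) than among NSC replicates (SD 0.03 to 0.20). In each of the 3 lines the astrocyte library numbered 1 was the lowest for Malat1. The summed level of the 13 mitochondrially encoded genes was lowest in the same libraries, at 19.77, 19.61 and 19.52 against 19.82 to 20.54 in the other astrocytes and 18.54 to 18.99 in NSCs. Of these 13 genes 11 passed the test as higher in astrocytes, with a median of 1.21 (limma, NSC to astrocyte). Their part in the Malat1 values was not tested. Leaving out any 1 library moved the Malat1 difference to between 1.66 and 2.06 (tdTomato), 1.07 and 1.46 (EYFP) and 1.40 and 1.75 (hippocampal).

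Neat1 had the widest change of the 9 genes in the hippocampal line. Its log2 values in NSCs were 8.27, 8.17 and 8.04 (tdTomato), 9.08, 9.16 and 9.31 (EYFP) and 7.496, 7.68 and 7.60 (hippocampal). In astrocytes they were 11.08, 11.64 and 11.34 (tdTomato), 11.54, 11.73 and 11.67 (EYFP) and 11.94, 12.14 and 11.84 (hippocampal). The NSC groups were fully separate, with hippocampal NSCs lowest, and the order was turned round in astrocytes, where hippocampal libraries lay above both traced groups, which overlapped. The difference between fates was 3.19 ± 0.17 in the tdTomato line (9.14-fold), 2.46 ± 0.09 in the EYFP line (5.51-fold) and 4.38 ± 0.10 in the hippocampal line (20.9-fold). The change was smaller than the hippocampal one by 1.19 ± 0.20 in the tdTomato line and by 1.92 ± 0.13 in the EYFP line.

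Miat was at 5.10, 4.596 and 4.87 in tdTomato NSCs, at 6.68, 6.42 and 5.81 in EYFP NSCs and at 6.35, 6.36 and 6.27 in hippocampal NSCs. It was at 9.18, 9.13 and 9.30 in tdTomato astrocytes, at 9.36, 9.14 and 9.16 in EYFP astrocytes and at 10.00, 10.49 and 10.37 in hippocampal astrocytes. Hippocampal astrocytes lay above both traced groups, which overlapped, and among NSCs only the tdTomato group stood apart, below the others. The change was 4.34 ± 0.15 in the tdTomato line, 2.92 ± 0.27 in the EYFP line and 3.96 ± 0.15 in the hippocampal line. These are 20.3-, 7.54- and 15.6-fold. An opposite-strand gene, Gm26953, covers 24.32% of the exonic bases of Miat, and 17.03% of the stretches of 75 bases of Miat occur in antisense orientation in other genes, so that Miat values would include reads of that gene if strand was not used in counting.

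**Figure D2:**
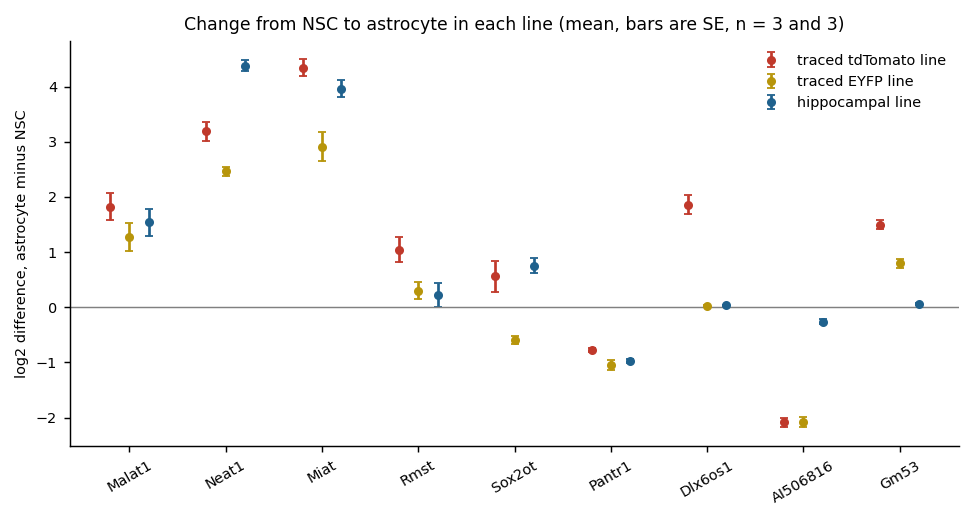
Difference of mean log2 values, astrocyte minus NSC (vertical axis), for the 9 genes in each line, with SE bars from 3 and 3 libraries. Neat1 and Miat have the highest points, between 2.46 and 4.38, and the lowest are AI506816 in the traced lines, at -2.09 and -2.08.

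Pantr1, the RNA transcribed away from Pou3f3, was at 9.33, 9.26 and 9.24 in tdTomato NSCs, 9.80, 9.76 and 9.79 in EYFP NSCs and 9.75, 9.79 and 9.88 in hippocampal NSCs. The astrocytes were at 8.47, 8.52 and 8.53 (tdTomato), 8.68, 8.60 and 8.91 (EYFP) and 8.82, 8.86 and 8.83 (hippocampal). Every astrocyte library lay below every NSC library, and tdTomato was the lowest line in both fates. Pantr1 dropped by 0.77 ± 0.03, 1.05 ± 0.09 and 0.97 ± 0.04 on the log2 scale in the tdTomato, EYFP and hippocampal lines.

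AI506816 was at 13.23, 13.42 and 13.46 in tdTomato NSCs, 12.98, 13.05 and 13.21 in EYFP NSCs and 8.35, 8.37 and 8.28 in hippocampal NSCs. In astrocytes it was at 11.27, 11.38 and 11.21 (tdTomato), 10.97, 11.13 and 10.91 (EYFP) and 8.13, 8.06 and 8.002 (hippocampal). All 6 group ranges were separate from each other, and the lowest traced library, at 10.91, lay above the highest hippocampal one, at 8.37. AI506816 fell by 2.09 ± 0.09 in the tdTomato line and by 2.08 ± 0.10 in the EYFP line, and by 0.27 ± 0.05 in the hippocampal line. The traced changes thus exceeded the hippocampal one by 1.82 ± 0.10 and 1.81 ± 0.11.

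The RefSeq promoter of AI506816 is shown because this gene had the widest difference between traced and hippocampal NSCs among the 9 genes with both groups clear of the low range. It covers 300 bases that end 50 bases past the annotated start, at chr5:23712618-23712917 on the minus strand of GRCm38.p6, with GGGCGG on either strand in capitals, the letters of a GC box.
AI506816 promoter: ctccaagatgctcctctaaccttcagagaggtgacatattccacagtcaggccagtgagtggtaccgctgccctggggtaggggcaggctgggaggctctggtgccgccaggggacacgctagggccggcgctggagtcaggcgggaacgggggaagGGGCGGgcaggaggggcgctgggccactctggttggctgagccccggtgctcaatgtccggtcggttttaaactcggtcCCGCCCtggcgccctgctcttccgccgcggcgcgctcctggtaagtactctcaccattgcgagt
The promoter holds 21 CpG dinucleotides, a number reached by 24.8% of 32851 promoters of 300 bases, whose median was 7. GGGCGG was found 2 times, and 35.7% of all promoters hold it on either strand. Neither TATAAA nor CCAAT was found, and 13.6% and 37.4% of promoters hold these.

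Gm53 was at 8.54, 8.32 and 8.42 in tdTomato NSCs and at 7.89, 7.86 and 8.03 in EYFP NSCs. It was at 10.00, 9.95 and 9.83 in tdTomato astrocytes and at 8.60, 8.83 and 8.75 in EYFP astrocytes. All 6 hippocampal libraries lay between 3.99 and 4.08, a range of under 0.1 over both fates, and the lowest traced library was at 7.86. The change to astrocytes was 1.499 ± 0.08 in the tdTomato line and 0.80 ± 0.09 in the EYFP line. In the hippocampal line it was 0.06 ± 0.02, and this value changed sign, to -0.28, under quantile normalization. Values this narrowly spread can belong to a gene without reads under a transform of this form, so the size of a difference from the hippocampal line depends on the transform (with a pseudocount of 10 on the linear scale, traced minus hippocampal became 3.53 in NSCs and 4.61 in astrocytes), and no fold is given.

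Sox2ot differed in direction between lines. It was at 8.82, 8.74 and 8.62 in EYFP NSCs and at 8.15, 8.21 and 8.06 in EYFP astrocytes, all 3 below the NSCs. It was at 7.54, 7.42 and 7.47 in hippocampal NSCs and at 8.03, 8.18 and 8.49 in hippocampal astrocytes, all 3 above the NSCs. In the tdTomato line the NSC values of 7.93, 7.16 and 7.07 overlapped the astrocyte values of 7.96, 7.91 and 7.96. The differences were -0.59 ± 0.07, 0.75 ± 0.14 and 0.56 ± 0.28 in the EYFP, hippocampal and tdTomato lines. The tdTomato NSC library numbered 1, at 7.93, was within the astrocyte range and set the overlap.

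Dlx6os1, also known as Evf2 and studied in forebrain interneurons, stayed below 3.32 in all libraries. It was at 0.62, 0.85 and 0.33 in tdTomato NSCs and at 2.33, 2.60 and 2.45 in tdTomato astrocytes, a difference of 1.86 ± 0.17. The 12 libraries of the EYFP and hippocampal lines lay between -0.14 and -0.05, within 0.1 of the lowest value. Rmst was between -0.70 and -0.68 in all 9 NSC libraries. In astrocytes it was at 0.81, 0.13 and 0.14 (tdTomato), -0.15, -0.34 and -0.68 (EYFP) and -0.03, -0.67 and -0.68 (hippocampal), so that 3 of the 9 astrocyte libraries lay within 0.1 of the NSCs. At this level the differences of both genes depend on the transform, and expression in the groups at the low end was not detectable here.

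Traced and hippocampal cultures were compared within each fate to ask how the origin of the cells shows in these RNAs. AI506816 and Gm53 stood far above the hippocampal level in all traced libraries of both fates. In NSCs, 6 traced against 3 hippocampal libraries, AI506816 was higher by 4.90 ± 0.08 (SE), which is 29.8-fold, and Gm53 by 4.17 ± 0.12. In astrocytes AI506816 was higher by 3.08 ± 0.08, or 8.45-fold, and Gm53 by 5.27 ± 0.27. Neat1 was higher in traced NSCs by 1.08 ± 0.24 and lower in traced astrocytes, with a difference of -0.48 ± 0.13. Miat was lower in traced astrocytes (-1.08 ± 0.15), and in NSCs its groups overlapped (-0.75 ± 0.35). Malat1 was higher in traced NSCs by 0.36 ± 0.14 and its astrocyte groups overlapped (0.37 ± 0.27). Sox2ot, Pantr1, Rmst and Dlx6os1 overlapped in both fates, with differences between -0.28 and 0.58 in NSCs and between -0.22 and 1.25 in astrocytes. The groups did not overlap for 4 of 9 genes in NSCs, all higher in traced cells (all genes, 25.3%), and for 4 of 9 in astrocytes, 2 higher and 2 lower (all genes, 48.3%).

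The traced lines also differed from each other. In NSCs the tdTomato and EYFP libraries did not overlap for any of the 9 genes, where 48.5% of all genes did not. The EYFP NSCs were higher for Neat1 (tdTomato minus EYFP -1.02 ± 0.09), Miat (-1.45 ± 0.30), Sox2ot (-1.34 ± 0.28), Pantr1 (-0.50 ± 0.03) and Malat1 (-0.23 ± 0.11). The tdTomato NSCs were higher for Gm53 (0.50 ± 0.08), AI506816 (0.29 ± 0.10) and Dlx6os1 (0.73 ± 0.15), and for Rmst by 0.01, which is within the low range. In astrocytes 6 of 9 did not overlap (all genes, 28.8%). Gm53 was then higher in tdTomato by 1.20 ± 0.08 and Dlx6os1 by 2.55 ± 0.08, whereas Miat (-0.02 ± 0.09), Neat1 (-0.29 ± 0.17) and Malat1 (0.33 ± 0.33) overlapped. In NSCs these differences were wider than those between traced and hippocampal cultures for Miat (-1.45 and -0.75), Sox2ot (-1.34 and 0.58), Pantr1 (-0.50 and -0.28) and, in the low range, Dlx6os1 (0.73 and 0.34), and close to them in size for Neat1 (-1.02 and 1.08), with the traced libraries shared by both comparisons.

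**Figure D3:**
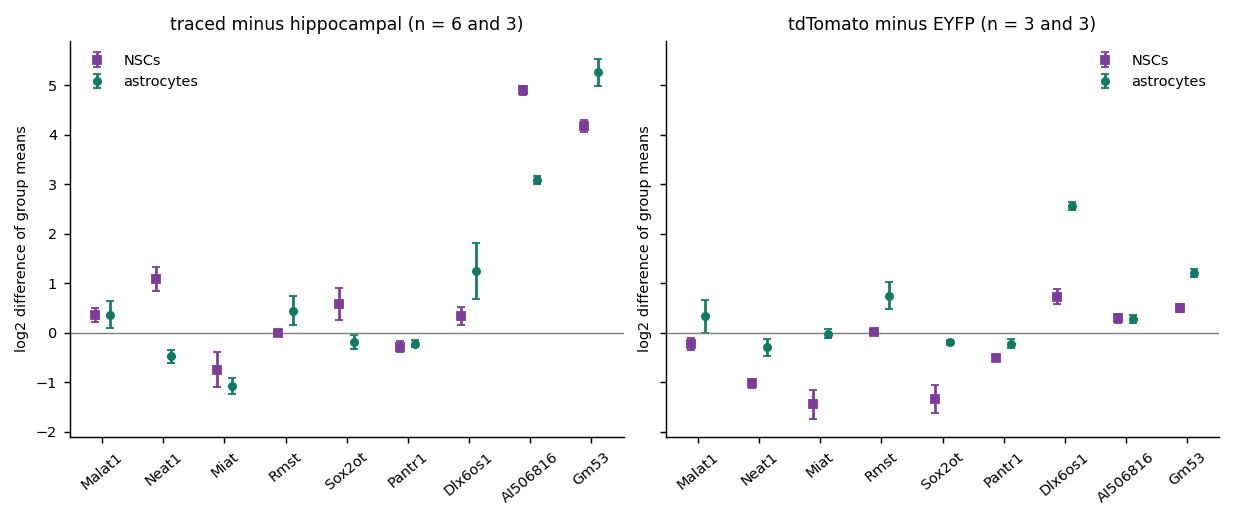
Difference of mean log2 values with SE bars for the 9 genes, traced minus hippocampal on the left (6 and 3 libraries) and tdTomato minus EYFP on the right (3 and 3 libraries), with squares for NSCs and circles for astrocytes. AI506816 and Gm53 lie between 3.08 and 5.27 on the left and between 0.28 and 1.20 on the right, and Dlx6os1 in astrocytes is the highest point on the right at 2.55.

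The coding genes on either side of the 9 RNAs were taken by position and were tested. A neighbour that runs with its RNA is tied to the choice of that RNA on these values. Over the 18 libraries, r was 0.997 for Hoxb9 with Gm53 and 0.988 for Dlx6 with Dlx6os1. The p-values of Hoxb9 below are thus no separate support for its differences. Limma was fitted on all genes above the low range, and p-values were adjusted over all of them by the Benjamini-Hochberg method, with 0.05 as the threshold. From NSC to astrocyte, with the line as a covariate, 14 of the 15 neighbours tested passed, 8 higher and 6 lower, with a median difference of 0.16. In that comparison 81.9% of 15448 genes passed, with a median of 0.02, and nothing is read from the count, which includes Dlx6 and Hoxb13, each above the low range in 1 group alone. The Sox2 gene inside Sox2ot rose by 1.06 ± 0.07 (SE, adjusted p = 1.2e-10), at group means of 11.29 to 12.05 in NSCs and 12.64 to 13.00 in astrocytes. It rose in the EYFP line too, from 11.87 ± 0.09 (SD) to 12.75 ± 0.12, where Sox2ot went the other way.

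Pou3f3, a POU-domain factor of neural progenitors beside Pantr1, dropped by 0.29 ± 0.06 (adjusted p = 0.00018). Its mean was 11.44 in tdTomato cells of both fates, while it went from 12.05 to 11.65 in the EYFP line and from 12.08 to 11.60 in the hippocampal line. Pantr1 had fallen in the tdTomato line as well, by 0.77. Of the other POU class 3 genes, Pou3f1 and Pou3f4 fell by 3.48 ± 0.07 and 0.84 ± 0.05 and Pou3f2 rose by 1.01 ± 0.06 (adjusted p 1.1e-17, 3.8e-11 and 5.6e-11). Pantr2, a further RNA of the Pou3f3 locus named after its values were seen, rose by 1.182 ± 0.17 (adjusted p = 3.4e-06).

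Hoxb9, a homeobox gene of the trunk and the neighbour of Gm53, was higher in astrocytes by 1.01 ± 0.18 over the 3 lines (adjusted p = 6.9e-05), and its hippocampal groups overlapped. Its means were 9.07 and 8.32 in tdTomato and EYFP NSCs, 10.86 and 9.51 in the astrocytes of these lines, and 4.50 and 4.56 in hippocampal NSCs and astrocytes. The hippocampal libraries lay flat at 4.46 to 4.66, so the size of its differences from that line depends on the transform, as for Gm53. Gm53 followed the same order of groups. Hoxb13, on the other side, had a mean of 3.45 in tdTomato NSCs, 0.95 in tdTomato astrocytes and at most 0.31 elsewhere. It entered the test through tdTomato NSCs alone, the group in which it was high, so its estimate of -0.81 ± 0.32 is a description.

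Dlx6, a homeobox gene of ventral forebrain and limb, entered the test through tdTomato astrocytes alone, the group in which it was high, so its estimate of 0.71 ± 0.25 over the 3 lines is a description. Its means were 1.85 and 3.88 in tdTomato NSCs and astrocytes and 0.32 to 0.40 in the other 4 groups, the groups in which Dlx6os1 was also at its lowest. Dlx5 was under 3.32 in all groups, with a mean of 2.78 in tdTomato astrocytes and at most 0.11 elsewhere. Of the 6 Dlx and GABA synthesis genes tested, Dlx1 fell by 1.42 ± 0.09 (adjusted p = 8.1e-11). The genes called higher, Dlx6 and Dlx3 (2.25 ± 0.29), were both below 3.32 in NSCs and entered through astrocytes, so their estimates are a description. Gad1, which makes GABA, was lower in traced NSCs with -1.997 ± 0.22 and in traced astrocytes with -2.82 ± 0.41 (adjusted p 0.00019 and 0.00021), and Dlx3 had an estimate of 2.09 ± 0.44 in traced against hippocampal astrocytes, with hippocampal libraries at 1.69 to 3.03. Dlx2 was lower in traced NSCs with -0.78 ± 0.19 (adjusted p = 0.018), a call lost without any 1 hippocampal NSC library (up to 0.084).

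Beside Neat1, Frmd8, a partner of the iRhom proteins, was higher in astrocytes of the hippocampal line by 0.65 ± 0.02, without overlap, while its groups overlapped in the tdTomato (-0.01 ± 0.09) and EYFP (0.06 ± 0.08) lines. The estimate over the 3 lines was 0.23 ± 0.08 (adjusted p = 0.014). Beside AI506816, Srpk2, a kinase of splicing factors, was higher by 0.16 ± 0.04 over the 3 lines, with overlap in the hippocampal line (0.01 ± 0.03), and Pus7, a pseudouridine synthase, dropped by 0.40 ± 0.03 (adjusted p 0.0013 and 9.5e-10). The neighbours of Rmst, Tmpo (lamina-associated polypeptide) and Nedd1 (a centrosomal protein), fell by 1.87 ± 0.06 and 0.84 ± 0.05 (adjusted p 1.6e-15 and 1.8e-11). They lie 889.7 and 519.6 kb away. Of the remaining neighbours, Dnajc19 rose by 0.30 ± 0.04, Tmem182, 1733.9 kb from Pantr1, rose by 1.72 ± 0.38 (3.74 ± 0.23 in the hippocampal line and 0.19 ± 0.17, with overlap, in the tdTomato line) and Sem1 fell by 0.40 ± 0.04 (adjusted p 5.9e-06, 0.00048 and 6.5e-08), while Atp11b was at -0.01 ± 0.04 (adjusted p = 0.89). Tmem182 was under 3.32 in hippocampal NSCs (2.23 to 2.89) and had a mean of 3.10 in EYFP NSCs, so its changes in those lines start in the low range. Cryba4, the lens crystallin gene next to Miat, and Dlx5 were below the low range and untested.

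**Figure D4:**
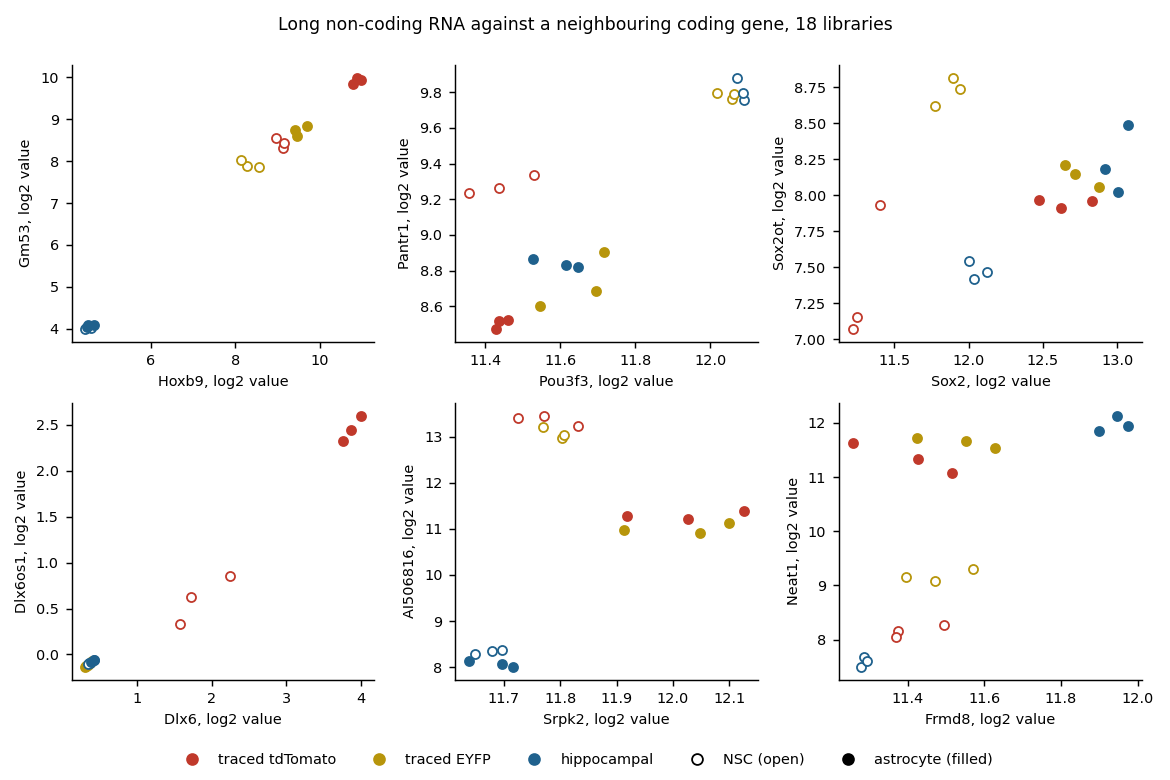
Log2 value of 6 of the long non-coding RNAs (vertical axes) against that of a coding gene next to them (horizontal axes) in 18 libraries, open for NSCs, filled for astrocytes and coloured by line. Gm53 and Hoxb9 run together over the groups, as do Dlx6os1 and Dlx6, whereas Sox2ot in EYFP NSCs lies above 8.6 at Sox2 values below those of all astrocytes.

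Between traced and hippocampal NSCs, 4 of 14 neighbours passed, all higher in traced cells (all genes, 19.4%). Among these were Hoxb9 at 4.19 ± 0.23, Frmd8 at 0.16 ± 0.05 and Srpk2 at 0.11 ± 0.03 (adjusted p 1.2e-06, 0.042 and 0.039). The count was 2 under each of median centring, quantile normalization and limma without a trend, which ended the calls of Frmd8 and Srpk2. Both calls also ended without tdTomato NSC number 1, EYFP NSC number 1 or any 1 hippocampal NSC library, and that of Srpk2 without any other traced library but tdTomato number 2 (adjusted p up to 0.14 for Frmd8 and 0.15 for Srpk2). Sox2 was at -0.47 ± 0.17 (adjusted p = 0.082) and Pou3f3 at -0.34 ± 0.17 (adjusted p = 0.20).

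Between traced and hippocampal astrocytes, 7 of 14 passed, 3 higher and 4 lower (all genes, 52.0%). Hoxb9 was higher by 5.63 ± 0.37, Srpk2 by 0.34 ± 0.05 and Dnajc19 by 0.28 ± 0.06 (adjusted p 8.1e-07, 4e-04 and 0.0028). Tmem182 was lower with -1.63 ± 0.21, Frmd8 with -0.47 ± 0.07, Sox2 with -0.31 ± 0.08 and Tmpo with -0.19 ± 0.05 (adjusted p 0.00011, 0.00026, 0.0099 and 0.011). Neat1 and its nearest neighbour Frmd8 were thus both higher in traced NSCs and both lower in traced astrocytes, although the difference of Frmd8 in NSCs did not pass with the scalings and left-out libraries given before.

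The change from NSC to astrocyte differed between traced and hippocampal lines for 9 of 15 neighbours, tested as an interaction of origin and fate (all genes, 42.2%, with 44.0% of the calls higher, 56.5% under median centring and 54.1% under quantile normalization). Hoxb9 rose more in traced lines by 1.44 ± 0.18 (adjusted p = 4.7e-06), and the change was smaller in traced lines for Tmem182 and Frmd8, with -3.04 ± 0.33 and -0.63 ± 0.08 (adjusted p 1.2e-06 and 4.6e-06). The hippocampal change of Tmem182 starts in the low range, with NSCs at 2.23 to 2.89. Srpk2 was at 0.23 ± 0.06 (adjusted p = 0.0075), against a difference of -1.82 for the change of AI506816 beside it. The call of Pou3f3 (0.29 ± 0.10, adjusted p = 0.027) was lost without hippocampal NSC number 1 or 2 or hippocampal astrocyte number 2 (up to 0.076), and that of Tmpo (-0.28 ± 0.09, adjusted p = 0.020) without hippocampal NSC number 2 (up to 0.077). For Sox2 the difference was 0.17 ± 0.14 (adjusted p = 0.35).

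The proteins that meet Malat1, Neat1, Miat and Rmst in the nucleus mostly had lower RNA levels in astrocytes, where Malat1, Neat1 and Miat lay higher. Of 38 genes for such proteins, 30 were lower and 4 higher in astrocytes, with a median difference of -0.57 (all genes, 81.9% passing, 6504 higher and 6155 lower of 15448, median 0.02). Among 14 paraspeckle proteins, 13 were lower and none higher, with a median of -0.74. Dazap1, an RNA-binding protein, fell by 1.19 ± 0.05 and Sfpq, a core paraspeckle protein needed for long Neat1, by 1.14 ± 0.04 (adjusted p 1.2e-13 and 1.4e-14). The other core proteins, Nono and Pspc1, fell by 0.75 ± 0.03 and 0.78 ± 0.04 (adjusted p 4e-13 and 5e-12), and Hnrnph3 was at 0.13 ± 0.07 (adjusted p = 0.080).

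Among 20 nuclear speckle proteins, 15 were lower and 3 higher, with a median of -0.36, beside the same shares and median of all genes. The splicing factor Srsf3 fell by 0.96 ± 0.04 (adjusted p = 9.8e-14), and the speckle kinases Clk1 and Clk4, which phosphorylate such factors, rose by 0.69 ± 0.08 and 0.38 ± 0.05 (adjusted p 2.9e-07 and 4.1e-07). Son, a scaffold of speckles, rose by 0.18 ± 0.03 (adjusted p = 4.5e-05). Of the 4 proteins known to bind Miat or Rmst, Celf3 rose by 0.91 ± 0.16, Sf1 fell by 0.53 ± 0.03 and Hnrnpa2b1 by 0.85 ± 0.04 (adjusted p 3.6e-05, 4.5e-11 and 1.1e-12), and Qk was at -0.11 ± 0.07 (adjusted p = 0.16). The proliferation genes, with a median of -4.57, fell in the same comparison, and their part in these differences was not tested.

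Between traced and hippocampal NSCs 1 of the 38 genes passed, Sf1, higher in traced cells by 0.17 ± 0.04 (adjusted p = 0.0079; all genes, 19.4%), and in astrocytes 15 of 38, 11 higher and 4 lower (all genes, 52.0%). The larger rises in traced astrocytes were those of Celf3 (0.64 ± 0.21), Clk1 (0.37 ± 0.11) and Hnrnph3 (0.31 ± 0.05), and the larger falls those of Ewsr1 (-0.23 ± 0.04), Sfpq (-0.17 ± 0.05) and Nono (-0.11 ± 0.03), with adjusted p from 0.00042 to 0.025. The count in astrocytes was 8 without the hippocampal astrocyte library numbered 1 and 9 without number 3. Without number 1 the calls of Celf3, Clk1 and Sfpq were lost, and without number 3 that of Sfpq in astrocytes and in the interaction (adjusted p up to 0.12 for Celf3). The call of Nono was lost under median centring and quantile normalization (up to 0.24). The interaction passed for 12 of 38 (all genes, 42.2%), with Hnrnph3, Qk and Cpsf6 at 0.47 ± 0.09, 0.45 ± 0.10 and 0.25 ± 0.07 and Ewsr1, Rbm14 and Sfpq at -0.33 ± 0.06, -0.26 ± 0.08 and -0.21 ± 0.06 (adjusted p from 0.00018 to 0.014).

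Other long non-coding RNAs were measured beside the 9 genes. Of 36 tested from a list of named RNAs, 16 were higher and 14 lower in astrocytes, with a median of -0.04 (all genes, 81.9% passing and median 0.02). Among 12 hosts of small nucleolar RNAs, which are tied to ribosome production, 10 were lower and 1 higher, with a median of -0.58. Snhg5 fell by 1.38 ± 0.05 and Snhg20 rose by 0.66 ± 0.09 (adjusted p 9.3e-15 and 1.3e-06). Airn, an imprinted antisense RNA, Hoxaas2, of the Hoxa cluster, and Dleu2, a miRNA host, rose by 1.91 ± 0.13, 1.88 ± 0.31 and 1.26 ± 0.08 (adjusted p 2.6e-10, 1.9e-05 and 1.5e-10), Hoxaas2 with hippocampal means of 5.42 and 5.59. Mir17hg, host of a proliferation-linked miRNA cluster, and Halr1, of the Hoxa cluster, had estimates of -1.70 ± 0.17 and -1.52 ± 0.13, a description, since both were below 3.32 in astrocytes and entered the test through NSCs. Over all 1122 genes of long non-coding biotypes tested, 661 were higher and 214 lower, with a median of 0.45, a class that includes those of the 9 genes above the low range.

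**Figure D5:**
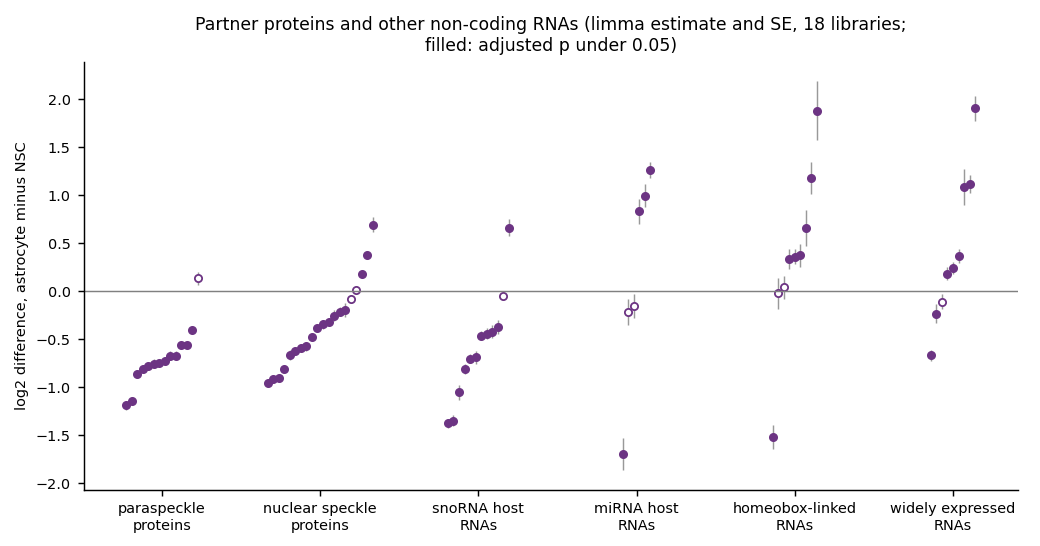
Limma estimate of the log2 difference, astrocyte minus NSC, with SE (vertical axis) for the genes of 6 lists, filled where the adjusted p was under 0.05. Of the paraspeckle proteins 13 of 14 are filled and below 0, as are 10 of 12 snoRNA hosts, while homeobox-linked and widely expressed RNAs lie mostly above 0.

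Origin was compared over the same list. In NSCs 9 of 35 passed, 7 higher and 2 lower in traced cells, and in astrocytes 17 of 33, 12 higher and 5 lower. Hoxb3os, an antisense RNA of the Hoxb cluster to which Gm53 also belongs, had estimates of 3.07 ± 0.26 in NSCs and 3.14 ± 0.23 in astrocytes, a description, since it entered both tests through traced libraries, with hippocampal means of 2.47 and 2.46. Gas5, a snoRNA host, was higher by 1.35 ± 0.07 and 1.36 ± 0.05 (adjusted p 1.1e-06 and 1.8e-08). Airn was higher in traced NSCs by 0.86 ± 0.18, and Peg13 and Pvt1 were lower with -0.45 ± 0.08 and -0.18 ± 0.05 (adjusted p 0.0084, 0.0033 and 0.029). In traced astrocytes Hoxaas2 was higher by 2.51 ± 0.15, and Mir9-3hg, Mir99ahg and Snhg15 were lower with -0.97 ± 0.10, -0.70 ± 0.14 and -0.50 ± 0.18 (adjusted p 3.3e-07, 1.4e-05, 0.0015 and 0.035). Genes of long non-coding biotypes passed in 13.2% of 885 cases in NSCs and 38.9% of 1052 in astrocytes, against 19.4% and 52.0% of all genes. The interaction passed for 8 of 36 in the list (all genes, 42.2%), among them Hoxaas2 at 2.58 ± 0.17, C130071C03Rik at 1.01 ± 0.15 and Peg13 at 0.58 ± 0.08 (adjusted p 3.4e-09, 2.4e-05 and 1.8e-05), and for 27.2% of the biotype class. Airn, Mir99ahg and Hotairm1 rose less in traced lines, with -0.92 ± 0.17, -0.57 ± 0.22 and -0.46 ± 0.11 (adjusted p 0.00026, 0.046 and 0.0025). The calls of Pvt1 in NSCs, Snhg15 in astrocytes and Mir99ahg in the interaction were each lost on leaving out any of 5, 5 and 12 single libraries, every library of the hippocampal fate group concerned among them for the first and second (adjusted p up to 0.12, 0.12 and 0.15).

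The genes most like each RNA over the 18 libraries were taken by Pearson correlation among the 15448 genes above the low range, as a description of groups and libraries that all genes share. For Gm53 they were Hoxb6, Hoxb9 and Hoxb5 (r = 0.997, 0.997 and 0.996), all on chromosome 11 with it. For Dlx6os1 they were Dlx6, Hoxa13 and the lincRNA 2810032G03Rik (0.988, 0.951 and 0.951). Miat was most like Lamb2 and Nr2f1 (0.994 and 0.993), Neat1 like Prelp, Zfyve27 and Crebrf (0.986, 0.985 and 0.983) and Malat1 like Ogt, Zfhx2 and Pcdhb20 (0.981, 0.976 and 0.972). AI506816 was most like Tagln2, Rpl29 and Rab3b (0.989, 0.984 and 0.978) and Pantr1 like Zfp740, Pcdh9 and Agap2 (0.985, 0.984 and 0.984). The closest genes to Rmst were Shank2, Lrtm2 and Rfxank (0.901, 0.897 and 0.893), and those to Sox2ot were Plat, Fam185a and Slc16a4 (0.845, 0.823 and 0.822), the lowest of the 9.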

How the data were processed

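RNA was measured in 18 libraries. Per the labels these were stranded poly(A) libraries (TruSeq) with a minimum of 25 M single-end reads of 76 bases, whereas the paper's methods name a KAPA poly(A) kit, and whether strand was used in counting is not given in the sources used here. The authors trimmed with Trimmomatic (0.36), aligned with STAR (2.5.2), counted with RSEM (1.3.0 in the submitters' processing notes) on Ensembl annotation of GRCm38 and normalized with DESeq2 (1.18.1). The deposited values are log2 values in the form of a regularized log, a transform the sources do not name, and the tests had been planned to fit either scale. Reads per gene cannot be recovered, so the precision that depth gives is known only from the minimum number of reads, and counting errors are not stated.

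Differences were tested with limma (3.58.1, R 4.3.3) with a variance trend on genes that reached 3.32 (log2, or 10 on the linear scale) in 3 or more of the libraries compared. Groups came from the labels. The p-values rest on the spread between passages of the same lines, but not on that alone. They also take in unlike levels or changes of lines that a model treats alike. These are tdTomato and EYFP in the comparisons with hippocampal cultures, and all lines for the change from NSC to astrocyte. The 9 genes and all lists were chosen with earlier results of these data known. Named were the 9 genes, their nearest coding neighbours on either side, up to 3 rises and 3 falls per list past the threshold, and the 3 most correlated genes, and other genes named were chosen after their values were seen. On simulated data with 200 changed genes, 88.3% to 100% of those with a log2 change of 1 were recovered in the 4 comparisons. Symbols matched 27887 genes, and 12 listed symbols were not found. Some genes that the naming rule selects are counted but not reported here by name. Promoters of Neat1, Rmst, Sox2ot, Pantr1 and Gm53 were not analysed here. Alternatives were other filters, pseudocounts, scalings and designs, and each library left out.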

Additional observations from a re-analysis of the deposited data

Results flagged for a closer look

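The change from NSC to astrocyte differed between traced and hippocampal lines, by the interaction test in limma, for the following neighbouring genes (traced minus hippocampal change, log2). Hoxb9 beside Gm53 was at 1.44, Pou3f3 beside Pantr1 at 0.29, Dnajc19 beside Sox2ot at 0.26 and Srpk2 beside AI506816 at 0.23. Tmem182, 1733.9 kb from Pantr1, was at -3.04, Frmd8 beside Neat1 at -0.63, and Tmpo and Nedd1 around Rmst at -0.28 and -0.28. The adjusted p ran from 1.2e-06 for Tmem182 to 0.027 for Pou3f3. Tmem182 was under 3.32 in hippocampal NSCs, so its hippocampal change starts in the low range.

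Sox2ot was the RNA among the 9 whose astrocytes lay wholly below the NSCs in the EYFP line, with -0.59, and wholly above them in the hippocampal line, with 0.75. The difference was not tested, since the gene was chosen on these values.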

How the results depend on the processing

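Of 102 recomputed counts of passing genes in the 3 lists, 95 stayed within 1.5 times the reported count, and 7 did not, all between traced and hippocampal NSCs. The 4 neighbours became 2 under median centring, quantile normalization and limma without a trend, and 8 in a model with 3 lines, which took the partner proteins from 1 to 5 and the other RNAs from 9 to 16; the model puts the traced lines' difference into its own term. Replicate numbers were not taken to pair the libraries, since the labels tie no number to a passage and not every pair reached 0.1 (same fate, other line: mean r = 0.106 over 18 pairs, 9 of them over 0.1; same line, other fate: -0.023 over 9 pairs), and with a replicate block these neighbours were 2, with no other count moved by over 1.5 times. The block left Frmd8, Srpk2 and Pvt1 in NSCs, Snhg15 in astrocytes and Mir99ahg and Gad1 in the interaction at adjusted p between 0.058 and 0.069.

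With each library left out, counts ran as follows for neighbours, partner proteins and other RNAs: 12 to 14, 34 to 35 and 28 to 30 for NSC to astrocyte, 2 to 5, 1 to 2 and 8 to 10 for origin in NSCs, 7 to 9, 8 to 17 and 12 to 17 for origin in astrocytes, and 7 to 11, 10 to 14 and 7 to 9 for the interaction. The count of 2 neighbours came without tdTomato NSC number 1 or any of the hippocampal NSC libraries 1, 2 and 3, that of 2 partner proteins without EYFP NSC number 2, and those of 8 and 9 partner proteins without hippocampal astrocyte number 1 and 3. Of 1575 left-out values for single genes 73 lost their call and 14 gained one, and of 941 under other settings 30 and 16. Nono in astrocytes lost its call under median centring and quantile normalization (adjusted p up to 0.24).

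For the 9 RNAs, none of 324 values with a library left out moved by more than 1 SD between replicates. Of 170 other values, 17 moved by more and 1, Gm53 in the hippocampal line, changed sign to -0.28 under quantile normalization. The Malat1 change became 1.53 (tdTomato) and 1.08 (hippocampal) under quantile normalization. A pseudocount of 10 took the Dlx6os1 change in the tdTomato line to 0.43, that of Rmst to 0.09, and the origin difference of Gm53 to 3.53 in NSCs and 4.61 in astrocytes. The cause was not tested.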
